A study of Mus musculus with 16 samples.

Results

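Long intergenic non-coding RNA (lincRNA) genes that stand apart from protein-coding genes were examined for RNA polymerase II (Pol II) at their start sites and for monoubiquitylated histone H2B (H2Bub1) over their bodies. Members were taken from the GENCODE M21 annotation of the mouse genome (GRCm38, the same assembly as mm10) as autosomal genes of the type lincRNA whose body, with 2 kb on either side, met no protein-coding gene. This rule gave 4247 of 5209 autosomal lincRNA genes, among 55450 annotated genes in all. It used no measured value. The 962 autosomal lincRNA genes closer to a protein-coding gene and the 12412 autosomal protein-coding genes that lie 2 kb or more from any other protein-coding gene (called isolated protein-coding genes here) served for comparison. The members were short, with a median length of 8060 bp and a median of 3 exons in the transcript with most exons, against 18596 bp and 6 exons for isolated protein-coding genes, and 950 of them (22.4%) had more than 1 annotated transcript.

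Chromatin immunoprecipitation and sequencing had been done with antibodies against H2Bub1 and against RPB1, the largest subunit of Pol II, in cells with the genotype Atxn7l3+/+ (WT) or Atxn7l3-/- (KO) of the strain DBA/2 x C57BL/6. Mouse embryonic stem cells (mESCs) had been kept without feeders with LIF, 15% serum, PD0325901 at 1 µM and CH99021 at 3 µM, and mouse embryonic fibroblasts (MEFs) came from E10.5 embryos and had been grown with 10% serum. No further treatment was given to any group, and the KO allele is a null allele. Each of the 8 groups was 1 library. Rounded cells were also present in the cultures of KO MEFs, as the study describes them. There were no replicates, so no difference given here has a replicate check, and no test or p-value is given. Intervals of shares are exact (Clopper-Pearson) at 95% and cover counting error over genes only. Intervals of medians are exact binomial ones at 95%, taken from the ordered values, and cover the spread over genes only.

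Pol II transcribes lincRNA genes much as it does protein-coding genes, with initiation at a promoter and release into the body, but many lincRNAs are expressed at low levels and in few cell types. H2Bub1 is placed on nucleosomes behind elongating Pol II by the RNF20/RNF40 ligase. It is removed by USP22, USP27X and USP51, proteases that need the adaptor ATXN7L3. A few lincRNAs are abundant in nearly all cells, such as Malat1 and Neat1, which stay in the nucleus, and others mainly serve as host transcripts for microRNAs or small nucleolar RNAs (snoRNAs).

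The files hold called peaks. A Pol II call means that a narrow peak lay at least partly within 1000 bp of the annotated transcription start site (TSS), and its fold is the linear enrichment over the local background of that library. An H2Bub1 call means that a broad peak met at least 1 base of the gene body, and coverage is the percentage of the body inside such peaks. The fold is relative to each library, so folds of different libraries show an order of genes within a library and set no level between libraries, and the sequencing depth of the libraries is unknown. All 6 pluripotency markers chosen (Pou5f1, Sox2, Nanog, Tfcp2l1, Zfp42 and Dppa5a) had a Pol II call in both mESC libraries and all 6 fibroblast markers (Col1a1, Col1a2, Col3a1, Thy1, Twist2 and Prrx1) in both MEF libraries, and none of the fibroblast markers was called in mESCs. In KO MEFs 1 of the 6 pluripotency markers, Tfcp2l1 (fold 7.08), and 1 of the 2 endothelial markers, Pecam1 (fold 4.31), were also called, and neither was called in WT MEFs. The fold of each of the 6 fibroblast markers was a smaller number in the KO than in the WT MEF list, as at Prrx1 with 5.84 against 18.5, and so was that of most genes (32.3% of isolated protein-coding genes called in both had the higher fold in KO MEFs). The part of these marker differences in the MEF results was not tested. None of the 4 epithelial markers (Epcam, Krt8, Krt18 and Cdh1) was called in MEFs, and 2 of them (Epcam and Cdh1) were called in both mESC libraries. At Atxn7l3 itself H2Bub1 covered 100% of the gene in WT and 62.5% in KO mESCs, and 22% and 65.3% in MEFs, and Pol II was called at its TSS in every library. The study's construct has loxP sites around exons 2 to 12. Over exons 2 to 12 of the annotated transcripts with 13 exons (3162 bases), H2Bub1 peaks covered 100% in WT and 13% in KO mESCs. In MEFs they covered 21.6% in WT and 19.6% in KO. Pol II peaks covered 20.7% (WT) and 11.9% (KO) of this interval in mESCs and 19.3% and 10.9% in MEFs. A stretch of 2541 bases in it (chr11:102291991-102294531) was picked for having no H2Bub1 peak in either KO library, so that absence was fixed beforehand. It was 100% inside an H2Bub1 peak in WT mESCs but only 6.06% in WT MEFs. For this reason the stretch is no check of the genotypes. Pol II peaks took up 22.2% (WT) and 11.2% (KO) of the stretch in mESCs and 3.23% (WT) and 0% (KO) in MEFs.

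To show the regions that these calls rest on, the promoters of 7 members were read from the GRCm38 genome, from 250 bases before to 50 bases after the TSS, 5′ to 3′ on the strand of the gene. They were picked after their values were seen, to stand for different patterns of Pol II. Capitals mark matches, on either strand, to the TATA box TATAAA, the CCAAT box CCAAT, the GC box GGGCGG, the octamer ATTTGCAT, the CRE TGACGTCA, the E-box CACGTG and the AP-1 element TGACTCA. Malat1 (chr19:5802623-5802922, minus strand) and 5430416N02Rik (chr5:100429486-100429785, minus strand) had Pol II in all 4 Pol II libraries. Meg3 (chr12:109540751-109541050, plus strand) and 2900097C17Rik (chr2:156392930-156393229, minus strand), known in the literature as Norad, had it in both MEF libraries and in no mESC library. H19 (chr7:142578094-142578393, minus strand) had it in WT MEFs only, Platr26 (chr2:71719167-71719466, plus strand) in WT mESCs only and Gm13293 (chr2:11339238-11339537, plus strand) in KO MEFs only.
Malat1: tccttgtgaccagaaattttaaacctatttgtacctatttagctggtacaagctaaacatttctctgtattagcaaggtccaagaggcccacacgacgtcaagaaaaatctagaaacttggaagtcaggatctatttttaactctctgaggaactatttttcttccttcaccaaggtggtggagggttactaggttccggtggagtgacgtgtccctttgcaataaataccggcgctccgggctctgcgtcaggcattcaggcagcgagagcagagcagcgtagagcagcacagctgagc
5430416N02Rik: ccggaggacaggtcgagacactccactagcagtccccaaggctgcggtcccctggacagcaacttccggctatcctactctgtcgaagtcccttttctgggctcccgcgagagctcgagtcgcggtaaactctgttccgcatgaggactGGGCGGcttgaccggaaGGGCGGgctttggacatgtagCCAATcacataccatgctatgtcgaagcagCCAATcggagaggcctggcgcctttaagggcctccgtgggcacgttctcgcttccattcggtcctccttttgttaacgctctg
Meg3: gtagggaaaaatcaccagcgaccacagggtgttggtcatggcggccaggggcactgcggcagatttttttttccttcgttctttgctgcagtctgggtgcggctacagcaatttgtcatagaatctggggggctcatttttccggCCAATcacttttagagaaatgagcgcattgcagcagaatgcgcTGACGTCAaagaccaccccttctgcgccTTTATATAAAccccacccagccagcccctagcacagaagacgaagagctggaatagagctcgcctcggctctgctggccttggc
2900097C17Rik: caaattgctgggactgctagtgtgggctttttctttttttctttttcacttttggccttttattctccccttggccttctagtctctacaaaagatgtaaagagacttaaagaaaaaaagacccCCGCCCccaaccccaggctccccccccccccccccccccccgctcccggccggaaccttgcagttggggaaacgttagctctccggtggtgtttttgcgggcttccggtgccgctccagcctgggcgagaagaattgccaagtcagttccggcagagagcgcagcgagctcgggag
H19: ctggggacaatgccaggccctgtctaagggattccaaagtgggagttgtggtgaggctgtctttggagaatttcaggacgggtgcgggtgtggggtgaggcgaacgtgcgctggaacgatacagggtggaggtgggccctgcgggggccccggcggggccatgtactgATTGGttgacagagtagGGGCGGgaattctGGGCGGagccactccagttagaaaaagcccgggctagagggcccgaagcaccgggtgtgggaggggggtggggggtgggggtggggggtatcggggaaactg
Platr26: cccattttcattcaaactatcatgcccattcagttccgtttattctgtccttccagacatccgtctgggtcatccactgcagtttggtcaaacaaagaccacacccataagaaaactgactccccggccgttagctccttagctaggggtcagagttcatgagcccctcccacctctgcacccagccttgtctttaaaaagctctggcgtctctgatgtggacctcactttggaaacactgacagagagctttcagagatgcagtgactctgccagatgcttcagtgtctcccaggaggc
Gm13293: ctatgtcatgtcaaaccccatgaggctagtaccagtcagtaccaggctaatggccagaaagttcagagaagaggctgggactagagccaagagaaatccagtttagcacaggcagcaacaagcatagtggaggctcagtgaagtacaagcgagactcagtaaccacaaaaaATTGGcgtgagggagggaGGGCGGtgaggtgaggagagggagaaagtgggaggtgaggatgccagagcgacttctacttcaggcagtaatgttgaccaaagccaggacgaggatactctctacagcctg
The Meg3 promoter has a TATA box that begins at -30 from the TSS (and an overlapping one, on the other strand, at -34) with a CRE at -62 and a CCAAT box at -105. That of H19 has GC boxes at -65 and -52 and a CCAAT box, on the other strand, at -82. None of these letters occurs in the windows of Malat1 and Platr26. Of all 4247 members, 17.2% hold a TATA box in this window, 38% a CCAAT box, 8.05% a GC box, 2.24% the octamer, 0.824% a CRE, 5.79% the E-box and 7.3% the AP-1 element. The same shares over all 26016 autosomal lincRNA and protein-coding genes are 13.5%, 38.3%, 37.3%, 1.7%, 2.13%, 7.46% and 4.98%. A match is a description of the letters and does not show that a factor binds.

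Pol II was called at the TSS of few members. In mESCs there were 130 members with a call in WT (3.06%, interval 2.56 to 3.62) and 95 in KO (2.24%, 1.81 to 2.73). In MEFs the calls numbered 315 for WT (7.42%, 6.65 to 8.25) and 210 for KO (4.94%, 4.31 to 5.64). Over all 26016 autosomal lincRNA and protein-coding genes the shares in these libraries were 29.6%, 26.8%, 47% and 44%. Isolated protein-coding genes had a call in 26.8%, 25.2%, 44.5% and 41.3% of cases, in the same order of libraries. The lincRNA genes near a protein-coding gene were close to these, with 23.1%, 21.3%, 42.6% and 36.3%.

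**Figure D1:**
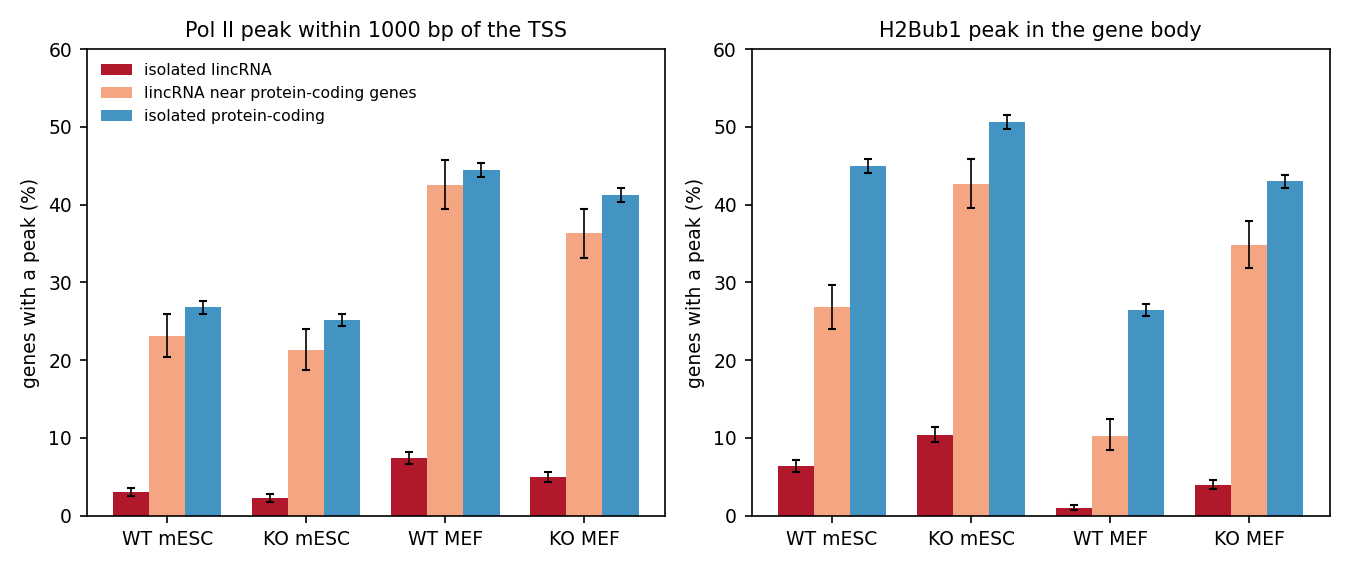
Percentage of genes with a Pol II peak within 1000 bp of the TSS (left) and with an H2Bub1 peak in the gene body (right) in each of the 4 cell preparations, for 4247 isolated lincRNA genes, 962 lincRNA genes near protein-coding genes and 12412 isolated protein-coding genes. Bars are shares in 1 library each and error bars are exact 95% intervals for counting error, and isolated lincRNA genes are lowest in all 8 groups of bars, between 0.989% and 10.4%.

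In all, 410 members had a Pol II call in at least 1 library and 51 had it in all 4. A single library carried the call in 211 members (4.97% of all members). Among isolated protein-coding genes 762 (6.14%) were called in 1 library and 2406 (19.4%) in all 4. A further 244 members had a Pol II peak in the body and at no TSS window in any library (827 of 12412 isolated protein-coding genes). Neither a Pol II peak at the TSS or in the body nor an H2Bub1 peak in the body was found at 3326 of 4247 members. The same held for 4729 of 12412 isolated protein-coding genes.

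Where Pol II was called, its enrichment at members was lower than at protein-coding genes in MEFs and nearer to them in mESCs. The median TSS fold of members in mESCs was 3.88 (3.72 to 4.05) for WT and 3.92 (3.66 to 4.27) for KO, against 4.3 and 4.53 for isolated protein-coding genes. In WT MEFs it was 6.1 (5.42 to 6.59) against 13.1, and in KO MEFs 6.13 (5.23 to 7.08) against 11.4. The summit lay within 250 bp of the TSS in 46.2% to 49.5% of called members and in 71.2% to 76.7% of called isolated protein-coding genes, over the 4 libraries. In 83.8% to 87.4% of called members the summit lay inside the window, and in at most 4 members of a library it lay nearer to the TSS of a protein-coding gene. Body peaks beside the TSS peak were present in 20.3% and 21.4% of called members in WT and KO MEFs, against 42.5% and 33.2% of called isolated protein-coding genes. There was no such gap in mESCs, with 17.7% against 19.3% in WT and 13.7% against 11.5% in KO.

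The members with Pol II differed from the rest in promoter composition, which the rule did not use. A promoter was called CpG-rich when at least 50% of its 300 bases were G or C and CpG was present at 0.6 or more of the number expected from its base composition. CpG-rich promoters made up 19.8% (16 to 23.9) of the 410 members with Pol II in any library and 2.14% (1.7 to 2.65) of the 3837 without. Among the 163 CpG-rich members 47.9% had a Pol II call in WT MEFs and 23.3% in WT mESCs, against 5.8% and 2.25% of the 4084 others. Pol II was called at fewer CpG-rich members than CpG-rich isolated protein-coding genes in each library, for example 47.9% (40 to 55.8) against 82.1% (80.9 to 83.2) in WT MEFs. Within the distances that the rule left, members with Pol II were also nearer to their closest protein-coding TSS (median 44.2 kb against 94.9 kb), and more of them had several annotated transcripts (31% against 21.4%). The closest protein-coding gene itself had a Pol II call beside 76.2% (71.1 to 80.8) of called members in WT MEFs and beside 59.8% (58.3 to 61.4) of the others, and in WT mESCs these shares were 53.8% and 37.6%.

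Pol II calls differed between WT and KO at a larger share of members than of other genes. In mESCs 158 members were called in either genotype, of which 67 had calls in both, 63 had one only in WT and 28 only in KO. WT only made up 39.9% (32.2 to 48) of these members, against 20.4% of all autosomal lincRNA and protein-coding genes called in either genotype, and KO only 17.7% (12.1 to 24.6) against 12.3%. In MEFs 350 members were called in either genotype, of which 175 had calls in both, 140 only in WT and 35 only in KO. Here WT only made up 40% (34.8 to 45.3) against 9% of all genes, and KO only 10% (7.06 to 13.6) against 2.85%. With both mESC lists brought to equal numbers of peaks, 37 members were called only in WT and 35 only in KO, so the excess of WT calls in mESCs was no longer seen. In MEFs the same step left 108 only in WT and 40 only in KO.

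Members with strong WT peaks mostly kept a call in KO, and members with weak ones mostly did not in MEFs. Of the members with a WT fold under 5, 23.4% (16.3 to 31.8) were also called in KO MEFs, against 64.5% (54.6 to 73.5) at a fold from 5 to 10 and 91.7% (83.6 to 96.6) at 10 or more. The same classes of isolated protein-coding genes gave 42.9%, 85.6% and 98.6%. In mESCs 43% (33.1 to 53.3) of members with a WT fold under 5 and all 5 members with a fold of 10 or more were also called in KO. The intervals of members and isolated protein-coding genes do not meet in any class of MEFs, but the classes are broad, the top one is open-ended, and members had the lower median fold. At TSSs with a call in WT and in KO, the log2 of the KO fold over the WT fold had a median of -0.02 (-0.18 to 0.05) over 67 members in mESCs and -0.28 (-0.37 to -0.19) over 175 members in MEFs, against 0.06 and -0.24 for isolated protein-coding genes.

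**Figure D2:**
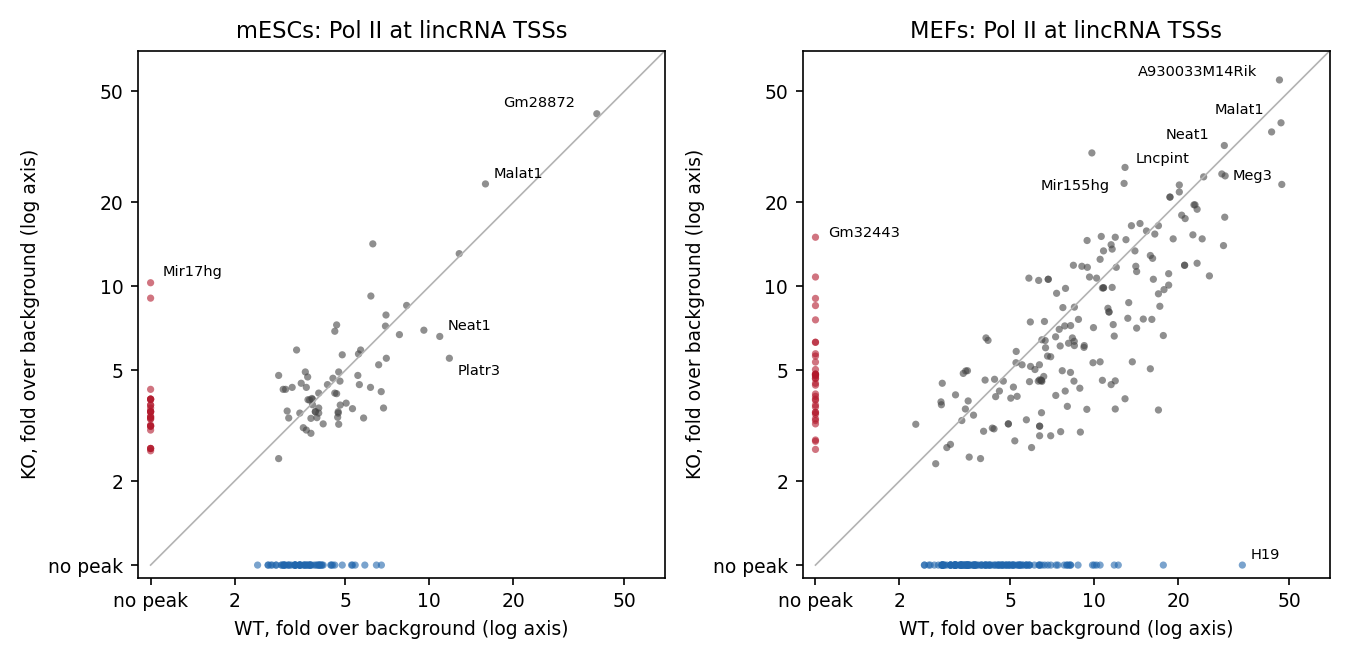
Pol II fold over background at the TSS of each member in WT (horizontal, log axis) and KO (vertical, log axis) libraries of mESCs and MEFs, with members lacking a peak in 1 genotype placed at "no peak". Grey points are called in both genotypes (67 in mESCs, 175 in MEFs), blue in WT only (63 and 140) and red in KO only (28 and 35), and the highest blue point is H19 in MEFs at a fold of 34.

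The members with the highest Pol II enrichment were largely called in both cell types. Malat1 (chr19:5795690-5802672), a nuclear lincRNA linked to splicing speckles, had a TSS fold of 15.9 (WT) and 23.3 (KO) in mESCs and of 46.8 (WT) and 38.6 (KO) in MEFs. Neat1, the scaffold of nuclear paraspeckles, had 10.9, 6.61, 29.3 and 32 in the same order. Both genes ranked among the top 5 members in each cell type. In KO MEFs these peaks reached far into the genes, and their summits lay 7702 bp (Malat1, beyond its end) and 4767 bp (Neat1) downstream of the TSS. Gm28872 (chr4:132270056-132270213) had the highest fold of all members in both mESC libraries, with 39.9 in WT and 41.6 in KO, and 43.3 in WT and 35.8 in KO MEFs. It is 158 bases long and the gene of the U11 spliceosomal RNA, Rnu11, lies in its TSS window, so that the peak cannot be given to either gene.

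The other members of the top 5 were little-studied transcripts. 5430416N02Rik had 6.27 and 14.2 in mESCs and 29.4 and 17.7 in MEFs, WT then KO. 2410080I02Rik had 12.8, 13.1, 17.2 and 8.48, with summits 1195, 1356, 894 and 1231 bp downstream of its TSS, beyond its 818 bases. In MEFs A930033M14Rik had 46.2 in WT and 55 in KO, and 1300014J16Rik had 47.1 in WT and 23.2 in KO. The summits of these MEF peaks lay more than 2000 bp from the TSS, on the side of the protein-coding genes Gtf3c6 and Zfp36l1, whose TSSs were 2826 bp and 2850 bp away. The fold of these 2 members is thus that of a peak centred closer to a neighbouring promoter than to the TSS of the lincRNA.

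Members called in 1 genotype only were mostly of low fold, and beside some of the strongest a peak of the opposite genotype lay beyond the window. H19 (chr7:142575529-142578143), an imprinted lincRNA of embryonic tissues that hosts a microRNA, had a fold of 34 in WT MEFs and no peak in KO MEFs within 44208 bp of its TSS, and it was not called in mESCs. The summit of its WT peak lay 3220 bp downstream of the TSS, beyond the 2615 bases of the gene. Gm44948, a gene of 149 bases, had a fold of 17.7 in WT MEFs only, with the summit at -3426 bp and the nearest KO peak 2052 bp from the TSS, and Gm44955 had 12.2, with the summit 1593 bp downstream and a KO peak 1048 bp away, just outside the window. In KO and not in WT MEFs, Gm32443 had a fold of 15, Gm13431 of 10.8 and Gm13293 of 9.05, and the nearest WT MEF peaks were 174129 bp, 13560 bp and 89991 bp away. Gm13431 was also called in WT mESCs, with a fold of 3.43. At H19, Gm32443, Gm13431 and Gm13293 the MEF library of the opposite genotype thus had no peak near the TSS, whereas at Gm44955 and Gm44948 it had one not far outside the window.

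In mESCs the strongest calls in WT only were at Gm23925 (fold 6.73), 2810405F17Rik (6.46) and Gm46430 (5.87), with the nearest KO peaks 1233 bp, 30458 bp and 154834 bp from the TSS. All 3 of these members were called in both MEF libraries, at 24.4 and 14.8, 16.5 and 15.4, and 7.27 and 6.59 in WT and KO. Gm23925 is 132 bases long and shares its symbol and place with an annotated snoRNA gene. The strongest calls in KO only were at Mir17hg (10.3), the host of the miR-17 to miR-92a cluster, at Gm48795 (9.07) and at A430073D23Rik (4.27). A WT mESC peak lay 1192 bp from the annotated TSS of Mir17hg, whereas none lay within 149117 bp of Gm48795 or 32827 bp of A430073D23Rik.

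Pol II in both genotypes of mESCs and in no MEF library was found at 9 of 67 members (13.4%, 6.33 to 24), against 2.42% of all genes called in both mESC libraries and 3.89% of isolated protein-coding genes. The count of 9 moved to 5 with a narrower window (100 bp before the TSS to 300 bp after it) and to 14 with the start sites of all transcripts. In MEFs 92 of 175 members (52.6%, 44.9 to 60.2) were called in both genotypes and in no mESC library, against 28.5% of all genes and 30.5% of isolated protein-coding genes. Counted over either genotype, 98 members were called in both cell types, which is 62% of the mESC members and 28% of the MEF members. The MEF Pol II lists are longer, with 45870 and 32232 peaks against 17074 and 11963, and the part of list length in these counts cannot be told apart from that of the cell type.

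The mESC members of this group with the highest mean fold were Platr3, Gm12510, Gm29283, C78283 and Platr27. Platr3 (chr2:135648907-135652063), from a set of transcripts named for their link to pluripotency, had 11.8 in WT and 5.52 in KO mESCs, with summits 2279 bp and 1362 bp downstream of its TSS. Gm12510 had 7.01 and 5.52 and its closest protein-coding TSS was that of Klf4, 66652 bp away. Gm29283 had 5.61 and 4.44 and lay closest to Prdm14, at 58325 bp. Klf4 and Prdm14 are genes of pluripotency factors. The closest protein-coding TSSs of Platr3, C78283 and Platr27 were those of Plcb4, Usp46 and Blcap. A link between these members and their neighbours was not tested. C78283 had 4.78 and 4.57, and Platr27 had 4.79 and 3.75. In MEFs the group was led by A930033M14Rik, Meg3, Carmn, Gm39228 and 0610043K17Rik, of which A930033M14Rik had a WT mESC peak 1012 bp away, just outside the window. The MEF peak of 0610043K17Rik (18.7 and 20.9, summit 2479 bp and 2486 bp downstream) is also the TSS peak of E130102H24Rik, a member that overlaps it on the opposite strand, and mESC peaks lay 2041 bp (WT) and 2134 bp (KO) from the TSS, in the gene body. At Gm39228 mESC peaks lay 3200 bp (WT) and 2064 bp (KO) from the TSS. These 3 loci were thus not without Pol II nearby in mESCs. Meg3 (chr12:109541001-109571726), an imprinted growth-restraining lincRNA, had 28.7 in WT and 25.3 in KO MEFs with summits 12 bp and -2 bp from its TSS, and Carmn, a host of microRNAs of the smooth muscle and cardiac lineages, had 29.1 and 14. The summits at Gm39228 (20.2 and 21.8) lay at -3989 bp and -3975 bp from its TSS, toward Mt1, a metallothionein gene whose TSS was 4207 bp away.

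At the deposited threshold H2Bub1 was called over more members than Pol II in mESCs and over fewer in MEFs, but this order turned in WT mESCs at a stricter threshold. In mESCs there were 270 members with an H2Bub1 call in WT (6.36%, 5.64 to 7.13) and 443 in KO (10.4%, 9.53 to 11.4). In MEFs the calls numbered 42 for WT (0.989%, 0.714 to 1.33) and 167 for KO (3.93%, 3.37 to 4.56). Over all autosomal lincRNA and protein-coding genes the shares were 46.6% and 53% in WT and KO mESCs and 25.9% and 45.3% in MEFs. Isolated protein-coding genes had 45%, 50.6%, 26.4% and 43% in the same order. A -log10 q of at least 3 left 42 members in WT and 138 in KO mESCs, and 9 and 110 in MEFs, so many of these calls, above all in both WT libraries, were close to the threshold of the peak caller. Pol II was called at 121 members in WT mESCs under the same minimum, more than the 42 with H2Bub1.

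H2Bub1 was called in KO at many members that lacked it in WT. In mESCs 179 members were called in both genotypes, 264 in KO only and 91 in WT only. KO only made up 49.4% (45.1 to 53.8) of the 534 members called in either genotype, against 16.7% of all genes, and WT only 17% (13.9 to 20.5) against 5.27%. In MEFs 35 members were called in both genotypes, 132 in KO only and 7 in WT only. KO only was 75.9% (68.8 to 82) of 174 members against 43.3% of all genes, and WT only 4.02% (1.63 to 8.11) against 0.573%. Among the lincRNA genes near a protein-coding gene, KO only made up 40.7% (36 to 45.5) in mESCs and 70.4% (65.2 to 75.3) in MEFs. These shares were nearer to those of the members than to those of all genes. WT only made up 5.52% of these lincRNA genes in mESCs and 0% in MEFs. In mESCs with the strict q the split was 102 in KO only and 6 in WT only.

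Coverage also rose within the members called in both genotypes. In mESCs the median coverage of 179 such members was 13.4% in WT and 27.8% in KO, and KO was higher in 147 of them (82.1%). In MEFs it was 10.9% and 84.1% over 35 members, and KO was higher in 31 (88.6%). A rise was also the rule at isolated protein-coding genes called in both genotypes. Their median went from 12.2% to 32.8% in mESCs, with KO higher at 86.8%, and from 15.2% to 64.5% in MEFs, with KO higher at 98.8%. Summed over all members, the covered bases were 576 kb in WT and 1422 kb in KO mESCs, a ratio of 2.47, and 161 kb and 1223 kb in MEFs, a ratio of 7.57. The ratio over isolated protein-coding genes was 2.15 in mESCs and 4.41 in MEFs. With a -log10 q of at least 3 the ratios of the members moved to 3.88 and 34.7, so their size depends on weak peaks. The peak lists themselves covered 71.3 Mb and 149 Mb of the autosomes in mESCs and 47.9 Mb and 219 Mb in MEFs. Counting shared bases once, members held 0.794% and 0.937% of these bases in mESCs and 0.331% and 0.53% in MEFs.

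Much of this length lay in few long genes. Pvt1 (chr15:62037986-62378096), a 340 kb lincRNA downstream of Myc, had 95.7 kb (WT) and 149 kb (KO) inside H2Bub1 peaks in mESCs and 59.8 kb (WT) and 202 kb (KO) in MEFs. Lncpint (chr6:31082565-31220488), a p53-regulated lincRNA, had 0 kb, 63.1 kb, 3.81 kb and 136 kb. At both genes the KO value was the higher in each cell type, and at Lncpint H2Bub1 was called in KO mESCs where no Pol II peak was found at the TSS. 2610035D17Rik followed in KO mESCs with 124 kb (80.1 kb in WT), then Gm26510 with 29.2 kb (5.65 kb in WT) and Trp53cor1 with 21.8 kb (12.3 kb in WT), where the KO peaks reached a protein-coding gene. In KO MEFs Gm14005 had 81.6 kb (21.3 kb in WT), Gm49317 had 40.5 kb (4.47 kb in WT) and AL805899.1 had 28.5 kb (0 kb in WT). The 5 longest held 27.2% of covered member bases in KO mESCs and 40% in KO MEFs, and without them the ratio of KO to WT was 2.7 in mESCs and 10.2 in MEFs.

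Loss of the H2Bub1 call in KO made up 91 of 270 members called in WT mESCs and 7 of 42 in WT MEFs, against 397 of 5584 and 33 of 3281 isolated protein-coding genes. With a -log10 q of at least 3 it was 6 of 42 and 5 of 9 members. The members with most covered bases among them had only short stretches inside peaks. In mESCs the members called in WT only with most covered bases were CR974462.2 (3.65 kb), Gm3294 (2.63 kb) and Gm33994 (2.54 kb, the whole gene). In MEFs they were Gm26917 (3.33 kb) and Gm42418 (1.83 kb), neighbours on chromosome 17 that were covered entirely at a fold of 1.8, and 2700054A10Rik (1.52 kb). An rRNA gene is annotated in the TSS window of Gm42418, and reads of such repeated sequence cannot be placed with certainty. None of these 6 members had a Pol II TSS call in the cell type concerned.

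H2Bub1 was far more common where Pol II was called. Of members with a Pol II TSS call, 59.2% (50.3 to 67.8) of WT and 84.2% (75.3 to 90.9) of KO mESC members had H2Bub1 in the body, and in MEFs these shares were 9.84% (6.79 to 13.7) and 53.8% (46.8 to 60.7). With a -log10 q of at least 3 they fell to 23.1% (WT) and 61.2% (KO) for mESCs and to 1.28% (WT) and 40.2% (KO) for MEFs. Of members without a Pol II call, the shares at the deposited threshold were 4.69%, 8.74%, 0.28% and 1.34%. Isolated protein-coding genes with Pol II had H2Bub1 in 92.5%, 98.2%, 55.7% and 94.2% of cases. The interval of the members lay below that of the protein-coding genes in each of the 4 preparations.

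The gap between members and protein-coding genes was also seen within broad bands of Pol II fold in MEFs, of which the top one is open-ended. In KO MEFs, H2Bub1 was called at 30.6% (21 to 41.5) of members with a Pol II fold under 5, at 60.3% (47.2 to 72.4) of those from 5 to 10 and at 79% (66.8 to 88.3) of those at 10 or more. For isolated protein-coding genes the shares were 70.2%, 93.9% and 99.2%. In WT MEFs they were 1.61%, 6.54% and 26.2% for members and 9.52%, 31.6% and 71.9% for isolated protein-coding genes. By length, members of KO MEFs with Pol II had H2Bub1 in 46.2% of cases under 5 kb, 47.2% from 5 to 20 kb and 78.7% above 20 kb, against 85.2%, 93.7% and 95.5% of isolated protein-coding genes, so the gap was present in each class of length. In mESCs the bands above a fold of 10 held 5 members each, too few to compare.

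**Figure D3:**
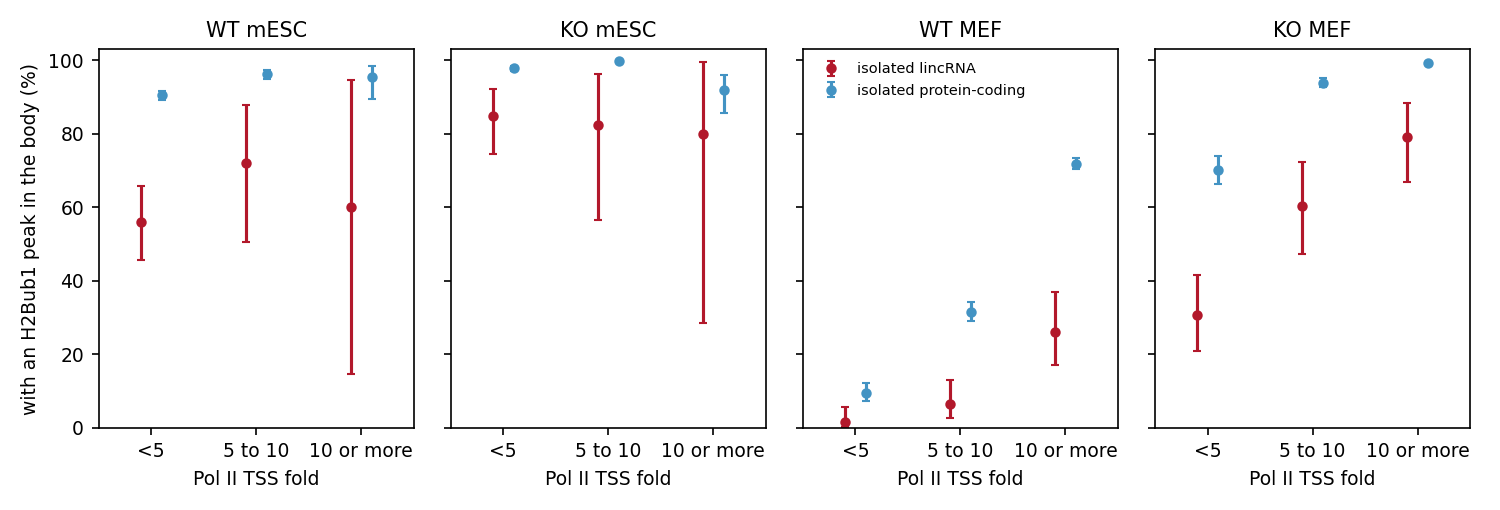
Percentage of genes with an H2Bub1 peak in the body (vertical) among genes with a Pol II TSS peak of fold under 5, 5 to 10, and 10 or more (horizontal), in the 4 preparations. Points are shares in 1 library, bars are exact 95% intervals for counting error, and in both MEF panels the lincRNA points (red) lie below the protein-coding points (blue) with no contact of the intervals, as at 79% against 99.2% in the top class of KO MEFs.

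Downstream of the TSS the H2Bub1 pattern of members was lower and flatter than that of protein-coding genes, and far upstream it was higher. The pattern was not cut at gene ends, so positions downstream can lie past the end of a short gene. Called members under 5 kb were 61 of 130 in WT mESCs and 141 of 315 in WT MEFs. For isolated protein-coding genes these were 326 of 3327 and 456 of 5526. Of members with Pol II in WT mESCs, 26.2% of TSSs lay inside an H2Bub1 peak and the share reached 40.8% at 300 bp downstream, whereas in isolated protein-coding genes it went from 39.3% to 76.3% at 350 bp. In KO mESCs it was 64.2% at the TSS and 70.5% at 200 bp for members. In WT MEFs it stayed at or below 4.76% over all distances from 1000 bp upstream to 3000 bp downstream, and in KO MEFs it reached 41.4% at 500 bp. Isolated protein-coding genes reached 25.1% (WT) and 90.1% (KO) in MEFs and 94.3% in KO mESCs. At 1000 bp upstream the members stood higher than the protein-coding genes in all 4 preparations, with 16.2% against 6.31% in WT mESCs, 44.2% against 23% in KO mESCs, 1.9% (6 of 315) against 0.452% in WT MEFs and 22.9% against 18.1% in KO MEFs, so the edge at the TSS was less sharp.

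**Figure D4:**
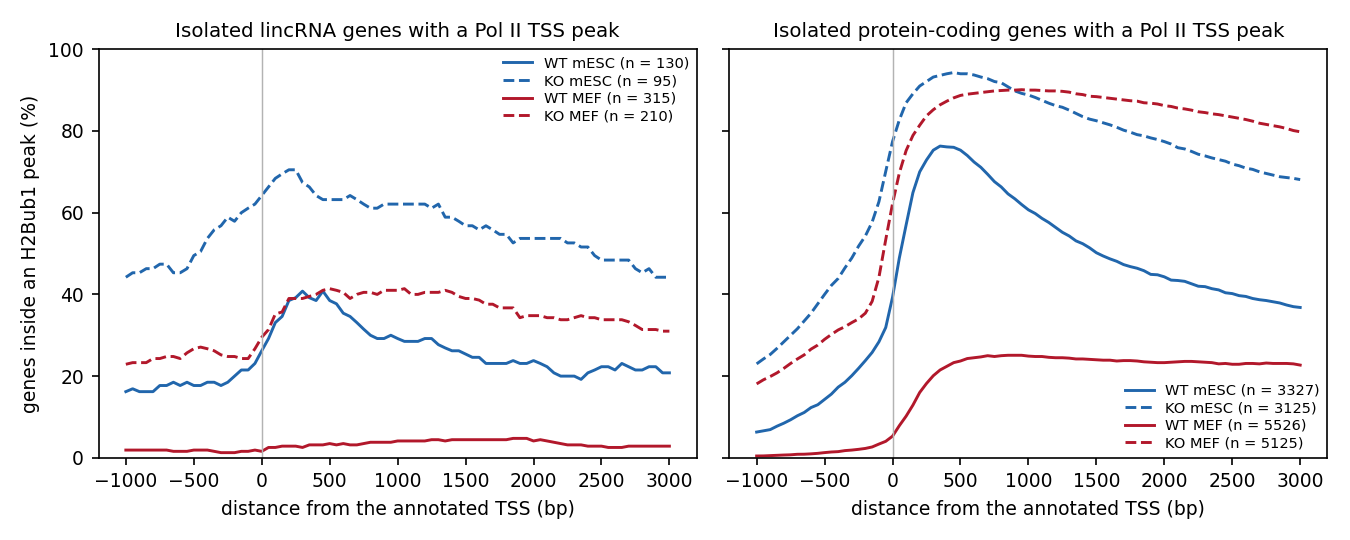
Percentage of genes inside an H2Bub1 peak (vertical) by distance from the annotated TSS in bp (horizontal, downstream to the right) for members (left) and isolated protein-coding genes (right) with a Pol II TSS peak in the same preparation. Each line is 1 library, dashed lines are KO, and the WT MEF line of the members stays at or below 4.76% where that of protein-coding genes reaches 25.1%.

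The H2Bub1 difference between WT and KO was then read by the Pol II calls of the members. Coverage was higher in KO than in WT at 50 of 67 members with Pol II in both mESC libraries and lower at 4, and in MEFs at 95 of 175 and lower at 1. Where Pol II was called in WT MEFs only, coverage was higher in KO at 11 of 140 members (7.86%, 3.99 to 13.6), and where it was called in KO MEFs only at 17 of 35 (48.6%, 31.4 to 66). In mESCs these counts were 34 of 63 (54%, 40.9 to 66.6) and 21 of 28 (75%, 55.1 to 89.3). The share at WT-only members was thus the lower in both cell types, but it was far lower in MEFs, and the mESC intervals overlap. This order was not particular to members, since isolated protein-coding genes gave 17.8% (WT only) and 76.4% (KO only) in MEFs and 78.6% and 91.1% in mESCs. Where Pol II was called in neither, 306 of 4089 members had higher coverage in KO mESCs and 102 lower, and 40 and 7 of 3897 in MEFs. These are 7.48% and 1.03% higher in KO, against 26.5% of 8534 isolated protein-coding genes in mESCs (2258 higher, 623 lower) and 5.92% of 6704 in MEFs (397 higher, 14 lower). Isolated protein-coding genes with Pol II in both libraries had higher coverage in KO at 87.1% (mESCs) and 94.1% (MEFs) of genes, against 74.6% (62.5 to 84.5) and 54.3% (46.6 to 61.8) of members.

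A large part of the mESC calls had no Pol II peak with them. H2Bub1 without a Pol II peak at the TSS or in the body was found at 153 members in WT and 332 in KO mESCs, and at 6 and 31 in MEFs. In mESCs these were 56.7% (WT) and 74.9% (KO) of the members with H2Bub1, against 32.6% (1823 of 5584) and 43.3% (2721 of 6281) of isolated protein-coding genes with H2Bub1. In MEFs they were 14.3% (WT) and 18.6% (KO), against 0.274% (9 of 3281) and 2.48% (132 of 5331). Over all libraries, 267 of 598 members with H2Bub1 had no Pol II peak in any library, against 878 of 7137 isolated protein-coding genes. At the 332 members of KO mESCs the median fold of the H2Bub1 peaks was 2.56, the median coverage 14.5%, and the median distance to the closest protein-coding gene 22.4 kb. At the 111 members with both H2Bub1 and Pol II there the median fold was 3.04 and the median distance 21.7 kb, and at members without H2Bub1 the distance was 64.1 kb. At 14 of the 443 KO mESC members and 19 of the 167 KO MEF members all H2Bub1 peaks reached into a protein-coding gene, and at the others at least 1 peak did not. 5830454E08Rik shows this in KO MEFs, where its 744 bases lay inside a peak that reached a protein-coding gene, while no H2Bub1 was called there in the other 3 preparations although Pol II was (9.56 and 6.96 in mESCs, 9.43 and 14.6 in MEFs, WT then KO).

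Strong Pol II peaks without H2Bub1 also occurred. In KO MEFs A930033M14Rik (fold 55), Gm28872 (35.8) and AC122252.2 (23.1) had the highest Pol II fold among members with no H2Bub1 in the body, and none of these 3 peaks can be assigned to the lincRNA. The peak of A930033M14Rik was centred nearer to Gtf3c6, that of Gm28872 cannot be told apart from one of Rnu11, and the summit at AC122252.2 lay at -5212 bp from its TSS. In KO mESCs the highest were Gm28872 (41.6), 5830454E08Rik (6.96) and AC158605.1 (5.72), so Gm28872 led there with the same reservation.

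Among the lists of known lincRNAs, the 9 nuclear and broadly expressed members are described first. The counts on these lists are small and were not tested, and they stand beside Pol II calls at 3.06% (WT) and 2.24% (KO) of all members in mESCs and 7.42% (WT) and 4.94% (KO) in MEFs, and H2Bub1 calls at 6.36%, 10.4%, 0.989% and 3.93%. Pol II was called at 5 of them in each mESC library and at 7 in each MEF library, and H2Bub1 at 5 and 7 in WT and KO mESCs and at 4 and 7 in WT and KO MEFs. Besides Malat1, Neat1, Pvt1 and Lncpint, these were Trp53cor1 (lincRNA-p21, near Cdkn1a), Lockd (downstream of Cdkn1b) and 2900097C17Rik (Norad, a partner of Pumilio proteins). Miat and Rmst, transcripts known from neural tissue, had no Pol II TSS call and no H2Bub1 in any library, and Rmst had 1 Pol II peak in the body in WT MEFs.

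Malat1 was nearly covered by H2Bub1 in all libraries, with 92.1% (WT) and 100% (KO) in mESCs and 95.6% (WT) and 100% (KO) in MEFs. In the same order of libraries Neat1 had 37.8%, 81.7%, 20.2% and 82.9%, and Pvt1 had 28.1%, 43.8%, 17.6% and 59.3%. Coverage was thus higher in KO in both cell types for all 3, by more than 2 times at Neat1. Lncpint was at 0%, 45.7%, 2.76% and 98.9%, with a Pol II fold of 12.9 in WT and 26.7 in KO MEFs. 2900097C17Rik was at 0%, 27.9%, 0% and 100%, with Pol II at 16.3 in WT and 10.6 in KO MEFs and no Pol II call in mESCs. Trp53cor1 had 56.4%, 100%, 0% and 22.2%, and its Pol II fold was 4.73, 4.93, 13.7 and 5.36. Lockd had 2.88%, 16.3%, 0% and 42.8%, and its Pol II fold was 6.15, 4.34, 21.1 and 11.9. Coverage in MEFs was higher in KO at Lncpint, 2900097C17Rik, Trp53cor1 and Lockd.

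**Figure D5:**
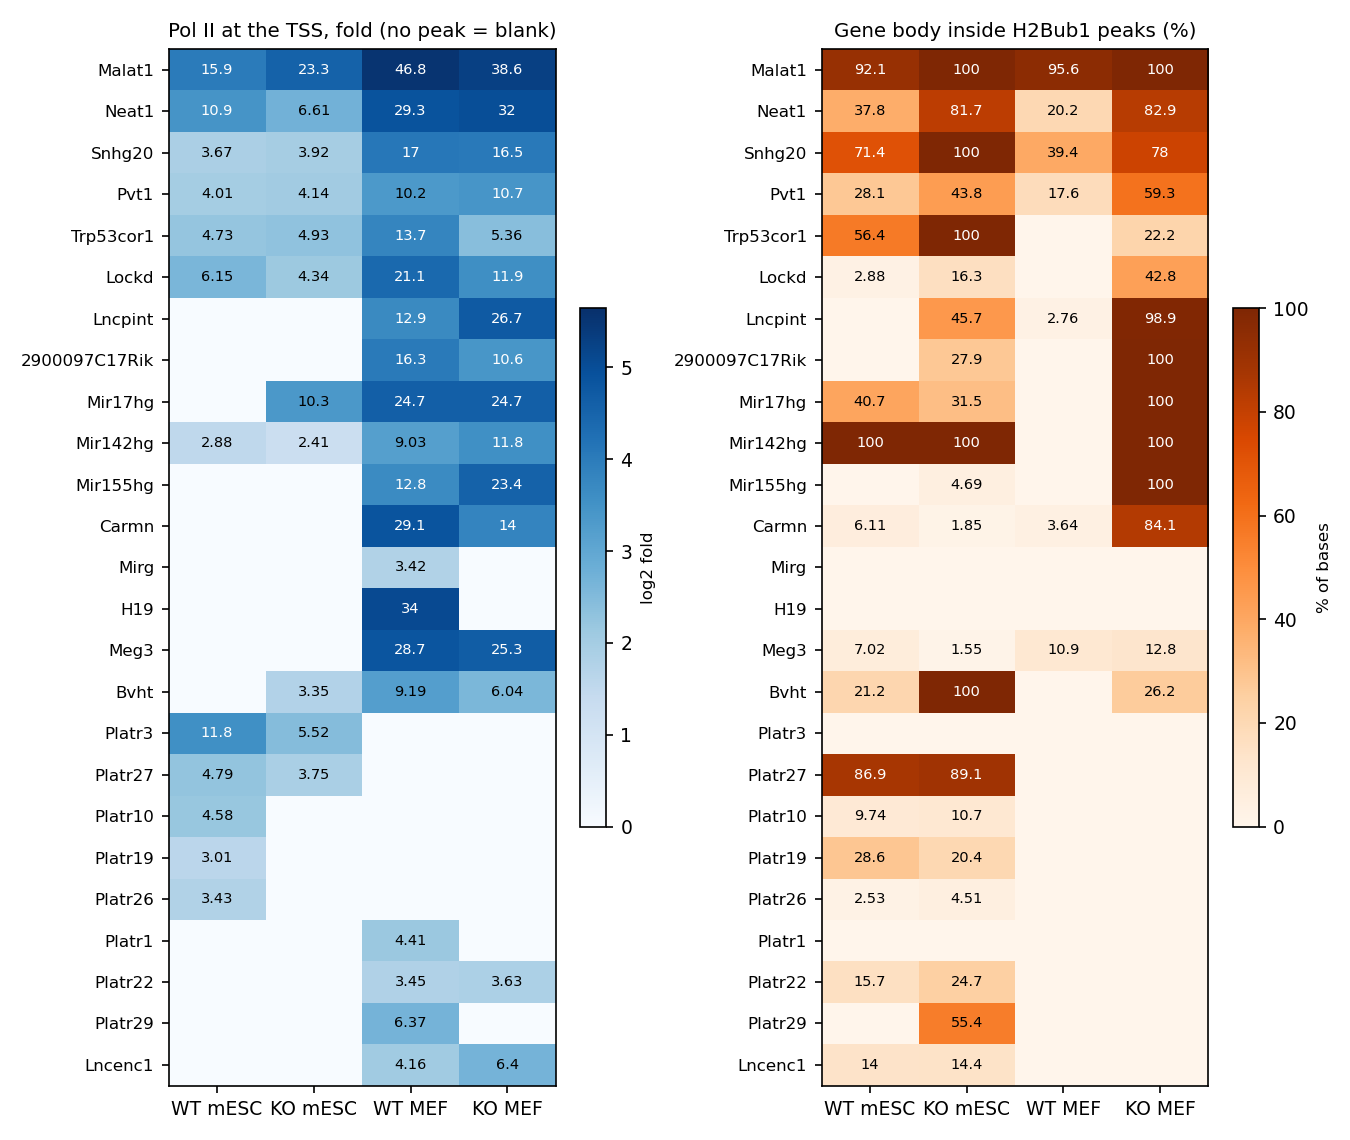
Pol II TSS fold (left, colour on a log2 scale) and percentage of the gene body inside H2Bub1 peaks (right) for the 25 members of the lists of known lincRNAs that had a Pol II TSS peak in at least 1 of the 4 Pol II libraries. Each cell is 1 library, blank cells have no peak, and the KO MEF column shows 100% coverage at Malat1, 2900097C17Rik, Mir17hg, Mir142hg and Mir155hg.

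Of the 11 members on the list of microRNA hosts, Pol II was called at 1 (WT) and 2 (KO) in mESCs and at 6 (WT) and 4 (KO) in MEFs. H2Bub1 was called at 4, 8, 2 and 6 in the same order. Mir155hg, host of a microRNA of immune and growth responses, had a Pol II fold of 12.8 (WT) and 23.4 (KO) in MEFs, and its coverage was 0% in WT MEFs and 100% in KO MEFs. Mir17hg had 24.7 in both MEF libraries, with coverage of 0% in WT and 100% in KO, while in mESCs its coverage was 40.7% in WT and 31.5% in KO. Mir142hg, host of a microRNA of blood cells, had 9.03 and 11.8 in MEFs with the summits 3159 bp and 2991 bp downstream of its TSS, beyond its 1694 bases. The coverage of these 3 host genes in MEFs was therefore 0% in WT and complete in KO. Carmn went from 3.64% to 84.1% in MEFs. The hosts of miR-124 and miR-9 of the nervous system, Mir124a-1hg, Mir124-2hg and Mir9-3hg, and Mir670hg and Mirt1 had no Pol II TSS call. Mirt1 was on the list, but that it hosts a microRNA was not checked. It is among the H2Bub1 counts through coverage of 4.94% in KO mESCs and 1.66% in KO MEFs.

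The only snoRNA host among the members, Snhg20 (chr11:117076008-117078955), had Pol II folds of 3.67, 3.92, 17 and 16.5 and coverage of 71.4%, 100%, 39.4% and 78%, each given for WT and KO mESCs and then for WT and KO MEFs. Coverage was higher in KO in both cell types. Most other known hosts were left out by the rule, because they have another gene type or lie next to a protein-coding gene.

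The 3 imprinted members, H19, Meg3 and Mirg, were called for Pol II in WT MEFs only or in both MEF libraries, and in no mESC library. Only Meg3 was called in KO MEFs. Mirg, a microRNA host downstream of Meg3, had a fold of 3.42 in WT MEFs with 15 body peaks, against 2 body peaks in KO MEFs, and Meg3 had 19 body peaks in WT and 8 in KO MEFs. H19 and Mirg had no H2Bub1 peak in any library, and Meg3 had 7.02%, 1.55%, 10.9% and 12.8%. Among the 4 mesenchymal and cardiac members, Pol II was called at Meg3, Carmn and Bvht in both MEF libraries and at Bvht (fold 3.35) in KO mESCs, and Hotair had neither mark. Bvht, a lincRNA of heart development, had Pol II folds of 9.19 and 6.04 in MEFs, and its coverage was 21.2%, 100%, 0% and 26.2%.

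Of 21 pluripotency members, Pol II was called at 5 (WT) and 2 (KO) in mESCs and at 4 (WT) and 2 (KO) in MEFs. Only Platr3 and Platr27 were called in both mESC libraries, while Platr10 (4.58), Platr19 (3.01) and Platr26 (3.43) were called in WT mESCs only. The nearest KO mESC peaks lay 6526 bp, 151976 bp and 265840 bp from these TSSs. Platr1 (4.41) and Platr29 (6.37) were called in WT MEFs only, and Platr22 (3.45 and 3.63) and Lncenc1 (4.16 and 6.4) in both MEF libraries, so 4 members of this list had a TSS call in MEFs and none in mESCs. In mESCs Lncenc1 nevertheless had Pol II in its body, with 5 peaks in WT (highest fold 29.1) and 6 in KO (13.1), and Platr29 had 3 body peaks in WT (4.87). H2Bub1 was called at 9 of the 21 in WT mESCs, at 11 in KO mESCs and at none in MEFs. Platr27 had 86.9% and 89.1% coverage in WT and KO mESCs, Platr4 22.5% and 88.9%, Platr29 0% and 55.4% and Eprn 11.7% and 100%, whereas Platr3 had none. No Pol II was called at the TSS of Platr4 and Eprn, nor at that of Platr11, where coverage was 44.1% in WT and 0% in KO. At Platr19 coverage was also lower in KO (20.4%) than in WT (28.6%).

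At 14 members both marks were called in all libraries: 1810058I24Rik, 2610037D02Rik, 5430416N02Rik, 6720427I07Rik, B930059L03Rik, E130102H24Rik, E430024I08Rik, Gm13067, Gm27017, Gm36445, Malat1, Neat1, Pvt1 and Snhg20. In mESCs their coverage ran from 1.79% to 100% in WT (median 46.6%) and from 4.15% to 100% in KO (median 88.2%), and it was higher in KO at 12 and equal, at 100%, at 2. In MEFs it ran from 2.09% to 95.6% in WT (median 19.7%) and from 11.5% to 100% in KO (median 98.3%), and it was higher in KO at all 14. Gm27017 went from 3.81% to 100% in MEFs at a Pol II fold of 9.9 (WT) and 5.32 (KO). The KO fold of Pol II exceeded the WT fold at 10 of the 14 in mESCs and at 3 in MEFs, against 49.3% and 29.1% of all members with a call in WT and KO, so the MEF count is near that of the members at large. CpG-rich promoters were found at 9 of the 14, against 19.8% of members and 64.8% of isolated protein-coding genes with Pol II in any library.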

How the data were processed

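The 8 peak lists analysed, 1 per group, came from libraries of WT and KO mESCs and MEFs. The labels list 16 samples, and the other 8 (inputs and phosphorylated Pol II) were not analysed here. The authors sequenced single-end reads of 50 bp, used Bowtie (1.0.0) for alignment to mm10 and called peaks per library with MACS2 (2.1.1.20160309), narrow for Pol II and broad for H2Bub1, as their processing notes and methods give it. They scaled H2Bub1 by size factors from intergenic sequence and Pol II by mapped reads. How this entered the calls, the control and the thresholds are not given in the sources used here. The deposited fold is a linear ratio to local background, and the deposited significance columns are the -log10 p and -log10 q of each peak. The lowest -log10 q of a list was 1 to 1.42. A deeper library gives more and wider peaks, and the depth is unknown.

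Positions were converted to 1-based and joined with GENCODE M21. Where several peaks met a TSS window the highest fold was used. The alternatives tried were a window from 100 bp upstream to 300 bp downstream, all annotated TSSs, an H2Bub1 call at 10% of the body, isolation by 5 kb, equally long lists for WT and KO and a -log10 q minimum of 3. Chosen after seeing the data were the absence of opposite-genotype peaks over 5000 bp, a summit inside the window, and leaving out H2Bub1 peaks that reach protein-coding genes. No test fits 1 library per group. The members and lists were chosen with earlier results of these data known. Genes are named by a rule: members of 6 lists (snoRNA hosts, miRNA hosts, nuclear and broadly expressed, imprinted, pluripotency, mesenchymal and cardiac lincRNAs) with Pol II in a library, and per cell type the top 5 by mean Pol II fold, the top 3 found in a single genotype, the top 5 by H2Bub1 bases in KO and top 3 in WT only, the top 5 of the cell type alone and the top 3 with Pol II and no H2Bub1 in KO. Members without Pol II, and those with both marks in all libraries, were named after their values were seen. Between 6 and 26 members per library shared a Pol II TSS peak with another member. The functions were tested on simulated peaks. The scripts ran under Python 3.11.15 with pandas 2.3.3, numpy 2.4.6, matplotlib 3.10.9 and scipy 1.17.1.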

Additional observations from a re-analysis of the deposited data

Results flagged for a closer look

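At 2 members the Pol II calls went in opposite directions in the cell types, and this difference was not tested. Gm13431 had a Pol II peak at the TSS in KO MEFs (fold 10.8) and none in WT MEFs, whereas in mESCs it had a peak in WT (fold 3.43) and none in KO. Gm37146 had a peak in KO mESCs (fold 3.39) and none in WT mESCs, and in MEFs a peak in WT (fold 3.46) and none in KO.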

How the results depend on the processing

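Of 156 values recomputed under other settings, 124 stayed within the limits set (1.5 times for counts, otherwise the 95% interval) and 32 moved. Isolation by 5 kb and a summit inside the window, the latter chosen after seeing the data, moved none of the values they were run on. With a -log10 q of at least 3 the members with H2Bub1 were 42 and 138 in WT and KO mESCs and 9 and 110 in MEFs. The members in both genotypes were then 36 (mESCs) and 4 (MEFs), in mESCs 6 had it only in WT and 102 only in KO, the ratios of covered bases were 3.88 and 34.7, and the H2Bub1 share of Pol II members was 23.1% and 61.2% in mESCs and 1.28% and 40.2% in MEFs. With a call at 10% of the body the members with H2Bub1 were 126 and 282 in mESCs and 24 in WT MEFs, those in both genotypes 96 and 18, those in WT only 30 in mESCs, and the share of Pol II members 45.4%, 72.6%, 6.03% and 44.8%. With the narrow promoter window Pol II was at 86 members in WT mESCs, 44 in both mESC genotypes and 5 in mESCs and not MEFs, and with all start sites at 14 of this last kind. With equally long lists 37 members had Pol II in WT mESCs only and the H2Bub1 share there was 68%. Without peaks of the opposite genotype over 5000 bp, chosen after seeing the data, 23 members had Pol II in KO MEFs only. Leaving out H2Bub1 peaks that reach a protein-coding gene, also chosen later, gave 11 members in WT MEFs only. The cause of these moves was not tested. No paired analysis was possible because each group is 1 library. Depth is unknown, so calls near the caller's threshold and absent calls of weakly transcribed members carry little weight.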
